A study of Mus musculus with 33 samples.

Results

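The genes of tumour necrosis factor (TNF), the lymphotoxins and their receptors were followed in the bone marrow of mice given a BCL2 inhibitor or a JAK1/2 inhibitor. They were the 9 endogenous probes named Tnf, Tnfrsf1a, Tnfrsf1b, Lta, Ltb, Ltbr, Tnfrsf14, Tnfsf14 and Cd27, chosen by name from the 750 endogenous genes of a NanoString nCounter panel. All 9 were among the 655 genes that could be tested, although Lta rose above background in only 12 of 33 mice. None of the 9 passed the test in any comparison of a drug with its vehicle. Apart from Lta, the estimates furthest from 0 were a lower Tnfrsf14 in ruxolitinib-treated mice on day 1 and a lower Ltb in venetoclax-treated mice on days 1 and 7.

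Total bone marrow RNA came from female C57BL/6 wild-type mice aged 6 to 8 weeks, with 1 lane of the instrument per mouse. Venetoclax, which inhibits the anti-apoptotic protein BCL2, was given once daily by oral gavage for 2 days. Ruxolitinib, which inhibits the kinases JAK1 and JAK2, was given 2 times a day by the same route and for as long. Each drug had its own vehicle, a mixture of phosal, polyethylene glycol and ethanol for venetoclax, and DMSO, polyethylene glycol and water for ruxolitinib. The doses were 100 for venetoclax and 180 for ruxolitinib, but the sources disagree on whether these are mg/kg or mg/ml. Marrow was taken on days 1, 3 and 7 post-treatment, from 3 drug-treated and 2 vehicle-treated mice per drug and day, and from 3 untreated mice, which makes 13 groups. The assay was on whole marrow, so that fewer cells of a type and less RNA per cell cannot be told apart.

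Depth set how firmly each level could be read. The endogenous counts of a lane summed to between 18056 and 466096, with a median of 158944, and 33.6% to 79.87% of endogenous probes were above the background of their lane. Background was the mean plus 2 SD of the negative control probes, which came to between 1.83 and 7.85 counts. There were 2 lanes under 30000 endogenous counts, replicate 1 of the venetoclax-treated mice on day 1 and replicate 1 of the ruxolitinib-treated mice on day 3. Lanes were read in 3 runs of 11, and each run held the mice of 1 day and 1 untreated mouse, so day and run cannot be told apart. Drug and vehicle were always compared within a run. Levels are given below as normalised counts, that is, counts divided by a factor from the housekeeping probes. They are compared between mice for 1 gene at a time and not between genes, since each probe has its own efficiency. The markers of B cells, T cells, NK cells, monocytes and neutrophils fixed for the marrow were found above background in at least 1 lane for every gene on the panel.

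TNF is a cytokine made mainly by macrophages and lymphocytes, and it acts through TNFR1 (Tnfrsf1a), which many cells carry, and TNFR2 (Tnfrsf1b), found mostly on blood and endothelial cells. Lymphotoxin-alpha (Lta) is secreted and binds the same receptors, or it is held on the surface of lymphocytes by lymphotoxin-beta (Ltb), and this complex binds the lymphotoxin-beta receptor (Ltbr) of stromal and myeloid cells. LIGHT (Tnfsf14) binds both the lymphotoxin-beta receptor and HVEM (Tnfrsf14), and HVEM also binds the inhibitory lymphocyte receptor BTLA. CD27 is the receptor of CD70 on T cells and on some B cells. Most of these receptors activate NF-kB, and several of the ligand genes are themselves NF-kB targets.

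Ltb, Tnf and Lta lie next to each other in the major histocompatibility region of chromosome 17. Their promoters are shown because these neighbours encode 3 of the 4 ligands described here. RefSeq sequences of build GRCm38.p6 run from 250 bases before to 50 bases after 1 listed start of each gene, 5′ to 3′ on the strand of the gene. For 6 of the 9 genes the listed start is the outermost end of the RefSeq gene, and for Lta, Cd27 and Tnfrsf14 it lies 227, 109 and 543 bases inside it, so that all or most of these 3 windows is within the annotated gene. Capitals mark matches, on either strand, to an NF-kB motif in either of 2 forms (GGG and TTTCC with 2 bases of any kind between them, or GGGG and TTCC spaced the same way), the STAT motif TTCNNNGAA, and TATAAA. The forms of the NF-kB motif can overlap each other. They are given for Ltb (chr17:35194257-35194556, plus strand), Tnf (chr17:35201958-35202257, minus strand) and Lta (chr17:35205302-35205601, minus strand).
Ltb: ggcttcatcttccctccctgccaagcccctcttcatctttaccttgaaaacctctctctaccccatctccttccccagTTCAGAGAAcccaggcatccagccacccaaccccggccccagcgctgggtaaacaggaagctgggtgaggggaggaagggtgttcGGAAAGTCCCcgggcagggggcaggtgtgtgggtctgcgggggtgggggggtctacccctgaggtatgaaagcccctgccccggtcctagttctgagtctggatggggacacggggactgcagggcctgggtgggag
Tnf: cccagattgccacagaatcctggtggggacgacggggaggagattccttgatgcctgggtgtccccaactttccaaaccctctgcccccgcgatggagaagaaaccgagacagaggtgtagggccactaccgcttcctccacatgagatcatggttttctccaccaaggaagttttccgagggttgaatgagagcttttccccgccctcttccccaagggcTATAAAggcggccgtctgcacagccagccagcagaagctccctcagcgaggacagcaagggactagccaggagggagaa
Lta: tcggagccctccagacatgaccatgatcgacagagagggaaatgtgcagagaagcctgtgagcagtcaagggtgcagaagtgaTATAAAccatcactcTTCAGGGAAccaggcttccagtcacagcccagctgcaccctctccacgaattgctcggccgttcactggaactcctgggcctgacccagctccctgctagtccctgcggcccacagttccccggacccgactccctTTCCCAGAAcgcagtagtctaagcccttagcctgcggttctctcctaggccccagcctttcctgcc

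The Ltb promoter held 1 match to the first NF-kB form, on the opposite strand, 87 bases before the start, and 1 to the STAT motif, 172 bases before it. The Tnf promoter held TATAAA 29 bases before its start and no other match. The Lta window had STAT matches 152 and 16 bases before its listed start, and TATAAA 167 bases before it, all of them inside the annotated gene. Of the 32851 promoters of this length, 1.63% held the first NF-kB form, 1.47% the second, 8.30% held TTCNNNGAA and 13.6% held TATAAA. Among the other members, Tnfrsf1a and Tnfrsf1b each had 1 STAT match, 244 and 181 bases before the start, and Ltbr and Tnfsf14 had none of these letters in the window. Neither did Cd27 and Tnfrsf14, and the Tnfrsf14 window does not reach the outermost start of its gene. A match is a string of letters and not a measured binding site.

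**Figure D1:**
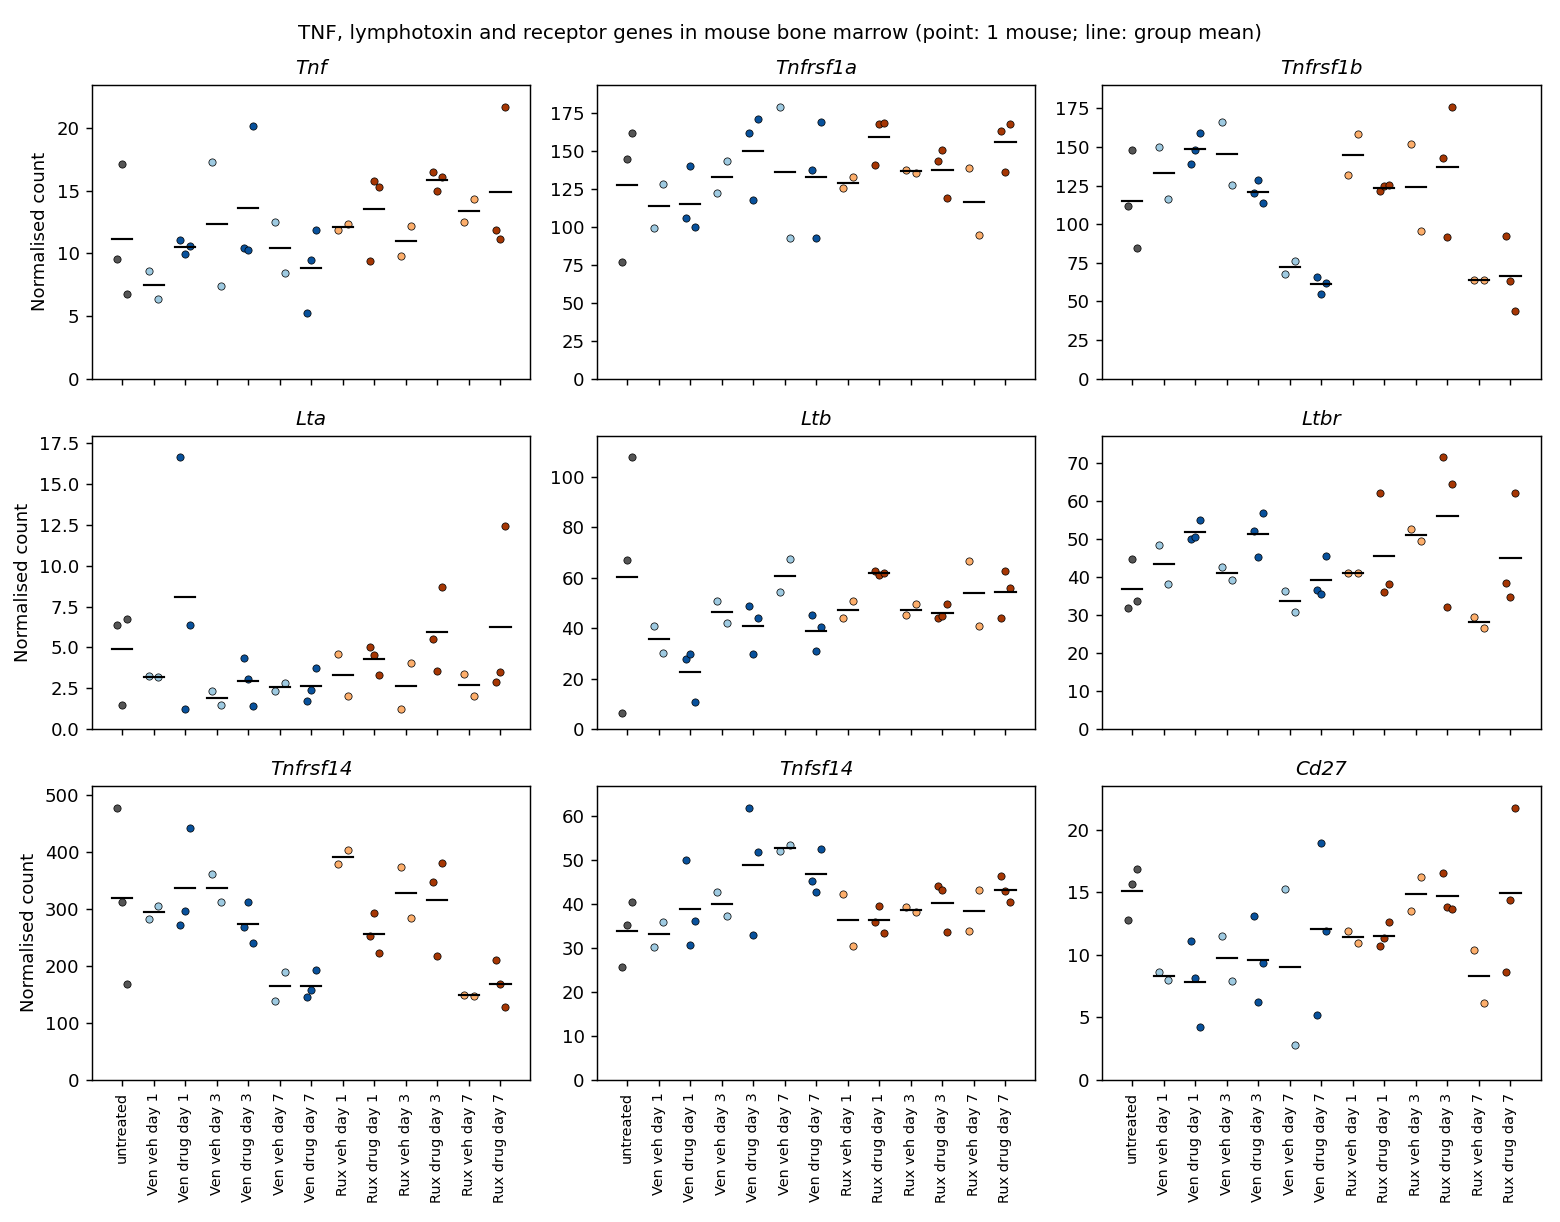
Normalised count (vertical axis, linear from 0) of the 9 genes in each of the 13 groups (horizontal axis; veh, vehicle), with 1 point per mouse and a line at the group mean. In most panels the groups overlap; Tnfrsf1b and Tnfrsf14 sit lower on day 7 in vehicle-treated and drug-treated mice, and Ltb is lowest in venetoclax-treated mice on day 1.

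Drug-treated mice were compared with the mice given the same vehicle on the same day, which makes 6 comparisons and, over 9 genes, 54 estimates. With edgeR's quasi-likelihood test, 0 of the 54 had an adjusted p under 0.05, and the smallest was 0.325. At an unadjusted p under 0.05 there was 1 of 54 (1.85%), against 7.94% of the 3930 estimates over all genes tested. DESeq2 and limma also called 0 of the 9 genes in each of these comparisons. The genes were higher in drug-treated mice in 35 of the 54 estimates and lower in 19, and no estimate was further from 0 than 0.87 on the log2 scale. The median SE was 0.30. For Tnfrsf1a, whose 95% intervals were among the narrowest, the lowest lower end of the 6 intervals was -0.62 and the highest upper end 0.92. Under the other scalings the estimates above 0 numbered 30 to 36 of 54, and the median over all genes moved between -0.14 and 0.25.

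The count of genes called was 0 of 9 on each day, beside a low background over all genes. For venetoclax, the share of all genes called came to 0.153% on day 1, to 0% on day 3 and to 0.153% on day 7. On day 3, where edgeR called 0 genes, 70 of 655 had an unadjusted p under 0.05 and DESeq2 called 1. For ruxolitinib it came to 2.75% on day 1 and to 0.153% on both day 3 and day 7. Averaged over the days, 0 of 9 genes were called for venetoclax and 0 of 9 for ruxolitinib, beside 2.9% and 1.22% of all genes.

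Whether drug-treated and vehicle-treated mice overlapped was also counted. On day 1, 3 of 9 genes separated venetoclax-treated from vehicle-treated mice, beside 27.5% of all genes, with Tnf and Ltbr higher and Ltb lower. On day 3 there were 2 of 9 beside 26.1%, with Ltbr higher and Tnfrsf14 lower. On day 7 there were 2 of 9 beside 17.3%, with Tnfrsf1b and Ltb lower. For ruxolitinib, 4 of 9 genes separated the groups on day 1 beside 44% of all genes, with Tnfrsf1a and Ltb higher and Tnfrsf1b and Tnfrsf14 lower. Later, 1 of 9 separated on day 3 (Tnf, higher), beside 15.6%, and 1 of 9 on day 7 (Ltbr, higher), beside 17.7%. These shares were near those of all genes.

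**Figure D2:**
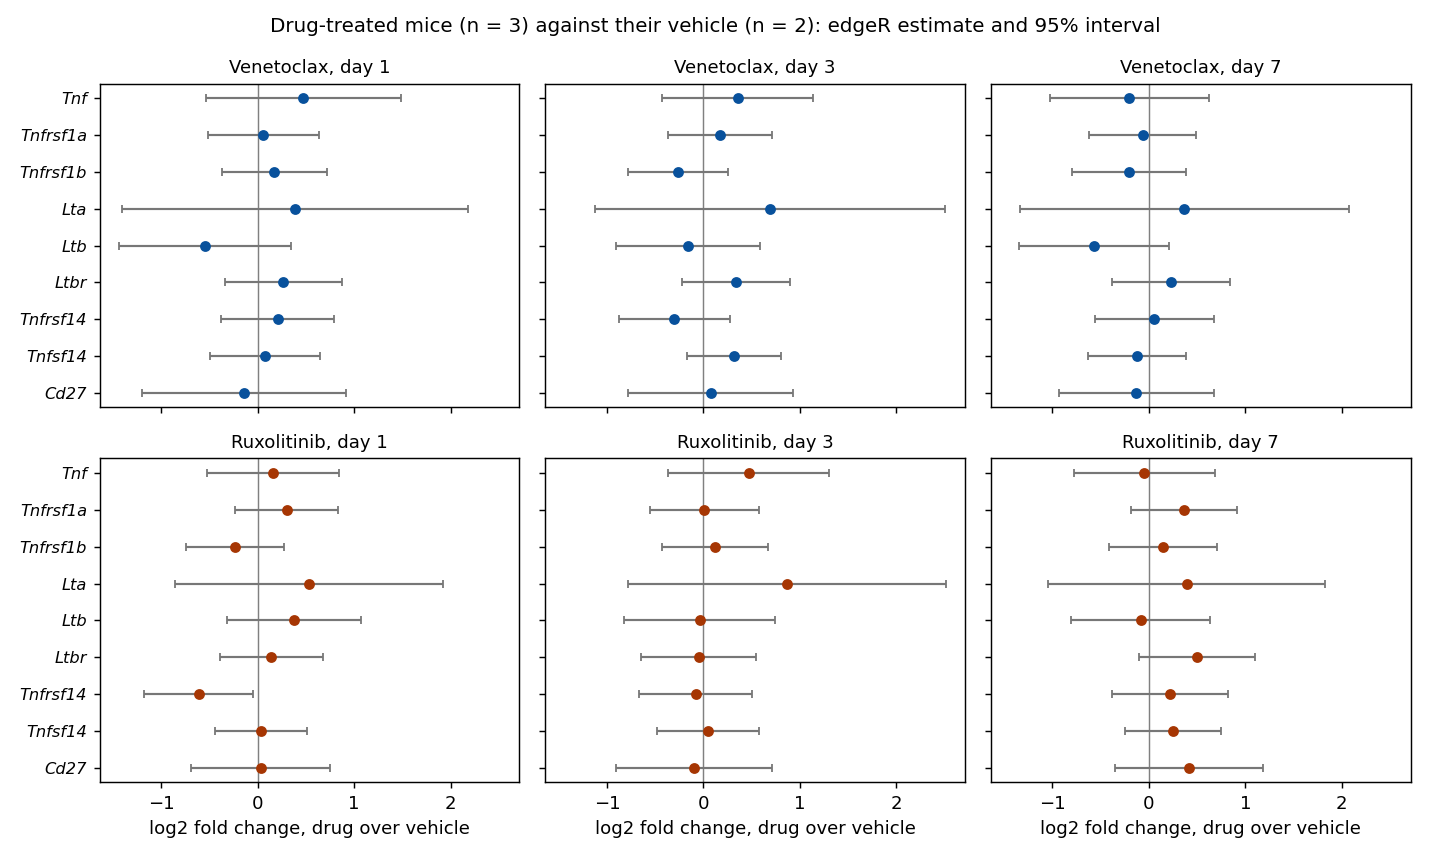
Log2 fold change of drug-treated (n = 3) over vehicle-treated mice (n = 2) for the 9 genes on each day, as edgeR estimates with 95% intervals (horizontal bars). All intervals include 0 except that of Tnfrsf14 for ruxolitinib on day 1, and those of Lta are the widest.

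Ltb, the membrane anchor of lymphotoxin, had its lowest group mean in venetoclax-treated mice on day 1 and its highest in ruxolitinib-treated mice on the same day. On day 1 the venetoclax-treated mice had normalised counts of 27.7, 29.9 and 10.6, from raw counts of 5, 48 and 5, and their vehicle-treated mice had 41 and 30.3. The groups did not overlap, although the highest drug-treated mouse lay just under the lowest vehicle-treated one. The log2 fold change was -0.55 with an interval of -1.44 to 0.34, and it was -0.26 without replicate 3 of the drug-treated mice and -1.15 without replicate 2. On day 3 the values were 48.8, 29.9 and 43.9 against 50.7 and 42.2, and the groups overlapped. On day 7 they were 45.2, 30.8 and 40.6 against 54.3 and 67.4, with all drug-treated mice lower and a log2 fold change of -0.57 (interval -1.35 to 0.21). Over the 3 days together the log2 fold change of Ltb was -0.42 (SE 0.23, interval -0.89 to 0.04), with an adjusted p of 0.584 by edgeR.

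Ruxolitinib-treated mice showed the opposite position of Ltb on day 1. Their values were 62.8, 61.1 and 61.8, against 43.96 and 50.67 in vehicle-treated mice, with a log2 fold change of 0.37 (interval -0.32 to 1.07). On day 3 the groups overlapped, at 44.03, 44.71 and 49.59 against 45.3 and 49.5. They overlapped on day 7 too, at 44.28, 62.55 and 55.91 against 66.85 and 40.98. The difference between the drugs' changes on day 1 was -0.92 on the log2 scale (interval -2.05 to 0.20) and -0.81 relative to the median over all genes, and it did not pass. Leaving out 1 mouse moved it to between -1.53, without venetoclax-treated replicate 2, and -0.63, without venetoclax-treated replicate 3, and limma on background-subtracted counts gave -1.49. None of these passed, with adjusted p-values from 0.387 to 0.790. With both vehicles of a day pooled as the control it was -1.36 with an adjusted p of 0.0122, and over the 3 days it was -0.66 with an adjusted p of 0.0392. A control shared by both drugs cancels from this difference, so these values compare venetoclax-treated with ruxolitinib-treated mice directly and take no vehicle into account. In that setting 70 of 655 genes were called on day 1, against 11 with each drug's own vehicle, and 36 over the days, against 4. The 2 vehicles are different mixtures, and the vehicle-treated mice of venetoclax had the lower Ltb on day 1.

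Across all 13 groups the mean of Ltb ran from 22.7 ± 10.6 (SD, n = 3) in venetoclax-treated mice on day 1 to 61.9 ± 0.840 (SD, n = 3) in ruxolitinib-treated mice on day 1. Ordered by their means, 11 of the 12 neighbouring pairs of groups overlapped, and the exception was the lowest pair, venetoclax-treated and vehicle-treated mice on day 1. Untreated mice held both the lowest and the highest value of all 33 mice, at 6.40, 67.2 and 107.9, and the lowest of them was a raw count of 2, under the background of its lane. That lane, of the day 1 run, had 38.5% of its endogenous probes above background.

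Ltb is made by B and T cells, among other lymphocytes, and the summed level of B, T and NK cell markers is given beside it. All 8 B cell markers were on the panel and tested. Their sum on day 1 was 424 to 452 in venetoclax-treated mice against 481 to 587 in the vehicle-treated mice, and 660 to 742 in ruxolitinib-treated mice against 604 to 612. The 11 T cell markers summed to 59.8 to 150 in venetoclax-treated mice against 92.4 to 104, with 1 of 11 above background in the shallowest lane, and to 107 to 119 in ruxolitinib-treated mice against 103 to 105. The B cell sums thus lay on the same side of the vehicle as Ltb for both drugs on day 1. On day 7 the B cell sum of venetoclax-treated mice was 474 to 792 and that of their vehicle-treated mice 553 to 632, which overlapped, while Ltb did not. Of the 11 T cell markers, 10 had estimates below 0 under venetoclax on day 3 (median -0.66) and 10 on day 7 (median -0.78), with 0 called on either day. The T cell sums were 74.2 to 82.4 on day 3 against 121 to 142, and 66.5 to 118.6 on day 7 against 114.9 to 185.4. In ruxolitinib-treated mice the B cell sum was 304 to 402 on day 3 against 588 to 625, and 248 to 336 on day 7 against 529 to 535, lower in all mice, while Ltb overlapped on both days. The 8 NK cell markers summed on day 1 to 30.5, 33.9 and 88.7 in venetoclax-treated mice against 52.6 and 62.6. The value of 88.7 came from the shallowest lane, with 0 of 8 above background. In ruxolitinib-treated mice on day 1 they summed to 53.1 to 57.7 against 60.4 to 69.8. The part of these cells in the level of Ltb was not tested.

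The ligand gene Tnf was close to background, with raw counts between 2 and 41, and it was above background in 27 of 33 mice. On day 1 venetoclax-treated mice had 11.1, 9.97 and 10.6 against 8.63 and 6.37, and on day 3 ruxolitinib-treated mice had 16.51, 15.04 and 16.12 against 9.80 and 12.2. In both cases all drug-treated mice were higher, but replicate 1 of each drug-treated group was a shallow lane with a raw count of 2 and 3, under its background. The log2 fold change was 0.47 both times, with intervals of -0.54 to 1.48 and -0.36 to 1.31. In the other 4 comparisons the groups overlapped, and the estimates of Tnf lay between -0.20 and 0.36. Its group means ran from 7.50 to 15.9, and all 12 neighbours in their order overlapped.

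Lta gave raw counts of 1 to 12 and its level could not be resolved at this depth. Its estimates were above 0 in 6 of 6 comparisons, under each scaling run, from 0.37 to 0.87 with an SE of 0.68 to 0.89, and in 0 of 6 did the groups separate. The highest normalised count, 16.6 in a venetoclax-treated mouse on day 1, was a raw count of 3 in the shallowest lane of the series, where it was not above background. Tnfsf14, the LIGHT gene, was above background in all 33 mice, and its estimates lay between -0.12 and 0.31 with overlapping groups in all 6 comparisons. Its group means ran from 33.03 in the venetoclax vehicle on day 1 to 52.7 in the same vehicle on day 7, and all 12 neighbours overlapped.

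Among the receptors, Tnfrsf14 was the only gene with an unadjusted p under 0.05 against a vehicle. On day 1 the ruxolitinib-treated mice had 252.3, 291.9 and 222.1, and their vehicle-treated mice 378.2 and 403.3. All drug-treated mice were lower, and the log2 fold change was -0.61 (SE 0.28, interval -1.18 to -0.05), with an adjusted p of 0.325 by edgeR. Over the other settings it lay between -0.69 and -0.42, with adjusted p-values from 0.00476 to 0.946. The smallest of these, 0.00476, came from a fit to the day's drug and vehicle mice alone, a setting in which 77 of the 655 genes were called against 18 in the fit to all groups. The median over all genes in this comparison was 0.13 and moved between 0.06 and 0.25 with the scaling, and relative to it Tnfrsf14 was -0.75. Marker lists of other cells moved in the same mice. The 2 pre-B cell markers summed to between 70.0 and 96.2 in the ruxolitinib-treated mice and to between 136.6 and 174.9 in the vehicle-treated mice. The 5 genes listed for stroma and endothelium (Cxcl12, Cdh5, Pecam1, Cdh1 and Thy1) summed to between 254.3 and 291.2 against 119.0 and 128.0. Of these, 1, the chemokine gene Cxcl12, was called higher (log2 fold change 1.93, adjusted p 0.00533 by edgeR). What Cxcl12 contributed to the sum was not separated. The part of these lists in the Tnfrsf14 difference was not tested.

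The vehicle-treated mice of ruxolitinib on day 1 had the highest group mean of Tnfrsf14, 390.7 ± 17.7 (SD, n = 2), above all mice of the venetoclax vehicle on that day (281.6 and 305.1). On days 3 and 7 ruxolitinib-treated and vehicle-treated mice overlapped, with log2 fold changes of -0.08 and 0.22. The change on day 1 minus that on day 7 was -0.83 (SE 0.41) with an adjusted p of 0.505 by edgeR, and 0 of 9 genes were called for this difference beside 1.53% of all genes. For venetoclax the same difference of days gave 0 of 9 beside 0% of all genes; 37 of 655 genes had an unadjusted p under 0.05 there and DESeq2 called 0.

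Venetoclax-treated mice had Tnfrsf14 at 271.8, 295.2 and 441.2 on day 1, which overlapped their vehicle. On day 3 they had 268.1, 311.0 and 240.5 against 360.9 and 311.9, all lower, with a log2 fold change of -0.30 (interval -0.87 to 0.27). The change under venetoclax minus that under ruxolitinib on day 1 was 0.82 for Tnfrsf14 (SE 0.40), with an adjusted p of 0.366 by edgeR. With both vehicles pooled, which sets the drugs' mice directly against each other, it was 0.41. Between the drugs, 0 of 9 genes were called on day 1 beside 1.68% of all genes, 0 of 9 on day 3 beside 0.153%, 0 of 9 on day 7 beside 0.305%, and 0 of 9 over the days together beside 0.611%.

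Tnfrsf1a, the gene of TNFR1, was above background in 33 of 33 mice, and its estimates lay between -0.07 and 0.36, above 0 in 3 to 5 of 6 comparisons depending on the scaling. The groups separated only for ruxolitinib on day 1, at 140.6, 167.4 and 168.5 against 125.5 and 132.5. The gene of TNFR2, Tnfrsf1b, lay between -0.26 and 0.17 in the same comparisons. Ruxolitinib-treated mice on day 1 had 121.1, 124.4 and 125.3 against 131.9 and 158.2, and venetoclax-treated mice on day 7 had 66.0, 54.5 and 62.1 against 68.0 and 75.8, with all drug-treated mice lower each time.

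Estimates of Ltbr were above 0 in 5 of 6 comparisons, or 5 to 6 over the scalings, and the groups separated in 3 of them. Venetoclax-treated mice had 49.92, 50.45 and 55.15 on day 1 against 48.6 and 38.2, and 52.2, 45.3 and 56.9 on day 3 against 42.7 and 39.3. Ruxolitinib-treated mice on day 7 had 38.5, 34.7 and 62.1 against 29.6 and 26.6, with a log2 fold change of 0.50 (interval -0.10 to 1.10). Over the 3 days the estimate for venetoclax was 0.28 (SE 0.17), with an adjusted p of 0.675 by edgeR. Cd27 was above background in 26 of 33 mice, its estimates lay between -0.15 and 0.42, and drug-treated and vehicle-treated mice overlapped in all 6 comparisons. Its highest group mean, 15.1 ± 2.09 (SD, n = 3), was that of untreated mice, of which 1 of 3 was above background.

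**Figure D3:**
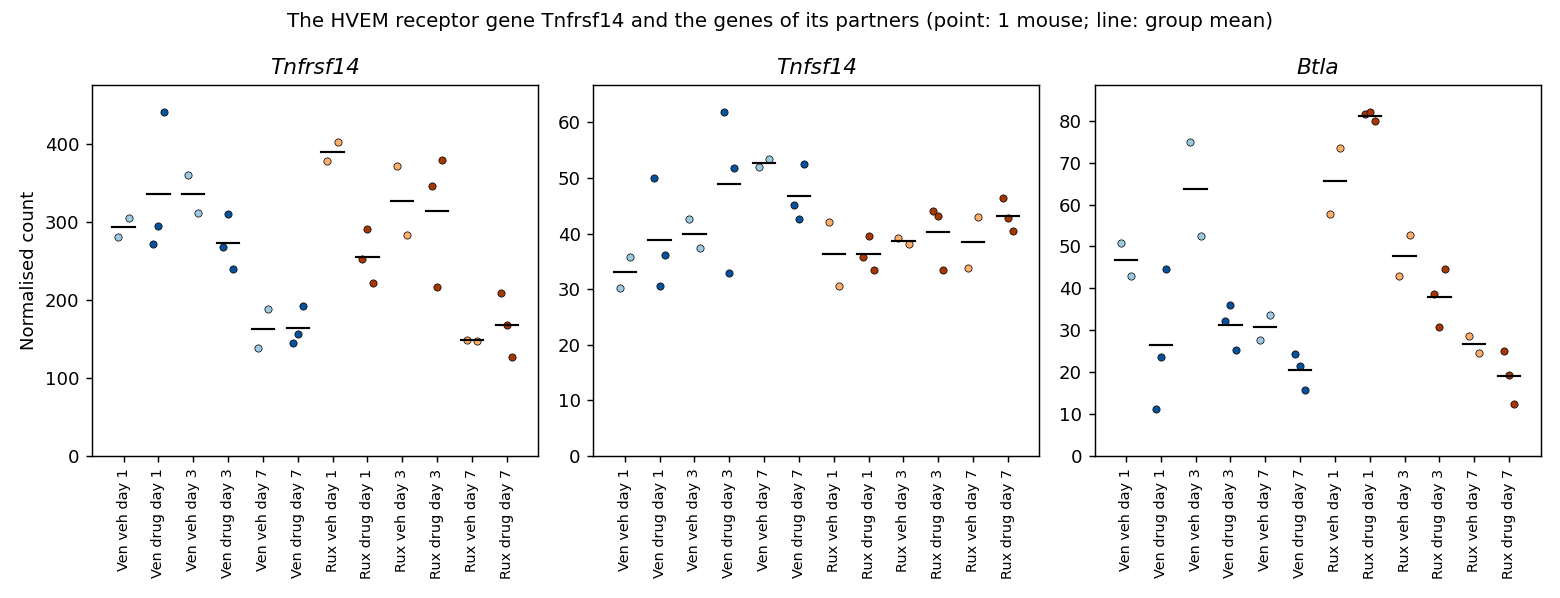
Normalised count (vertical axes, linear from 0) of Tnfrsf14 (HVEM), Tnfsf14 (LIGHT) and Btla in the 12 treated groups, with 1 point per mouse and a line at the group mean. Btla is lower in venetoclax-treated mice than in their vehicle on days 3 and 7 and in 2 of 3 mice on day 1, whereas Tnfsf14 overlaps on all days.

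The wider pathway was described through 4 gene lists, with 69 genes on the panel and 57 tested: other ligands of the TNF superfamily (10 tested), other receptors with the partners of HVEM (12), signalling adaptors and NF-kB genes (23), and genes induced by TNF or lymphotoxin (12). In venetoclax-treated mice, 0 of 57 were called on any single day and 2 of 57, both lower, over the days together, a share near the 2.9% of all genes. One was Btla, the inhibitory receptor that binds HVEM, with a log2 fold change of -0.80 (SE 0.17) and an adjusted p of 0.00602 by edgeR. Its normalised counts were 11.1, 23.7 and 44.5 in venetoclax-treated mice on day 1 against 50.71 and 43.02, then 32.2, 36.0 and 25.2 on day 3 against 74.9 and 52.5, and 24.3, 21.3 and 15.6 on day 7 against 27.7 and 33.7. Venetoclax-treated and vehicle-treated mice overlapped on day 1 and separated on days 3 and 7. The call held in 15 of 15 fits that left out 1 mouse and in 11 of 13 other settings. It did not pass in limma after background subtraction or in the exact permutation test within days, where adjusted p-values reached 0.199. With 3 against 2 mice per day the permutation has few arrangements, and it called 0 of 655 genes for either drug. The call of Btla thus depended on the test.

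The other gene lower under venetoclax was Rela, a subunit of NF-kB, at -0.48 (SE 0.14) with an adjusted p of 0.0417 by edgeR. This call held in 3 of 15 fits that left out 1 mouse and in 5 of 13 other settings. Markers of lymphocytes moved in the same comparison: 2 of 11 T cell markers were called lower, Cd8a at -1.90 and Cd3d at -0.94, and 1 of 8 B cell markers, Cd22, at -0.80. The list medians were -0.48 for T cells and -0.25 for B cells, against 0.04 over all genes. BTLA is carried by B and T cells, and their part in the level of Btla was not tested.

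In ruxolitinib-treated mice 2 of 57 list genes were called on day 1, a share near the 2.75% of all genes, and 0 on days 3 and 7. Tnfrsf13c, which encodes the BAFF receptor of B cells, was higher, at 21.97, 32.81 and 29.54 against 13.7 and 9.59, with a log2 fold change of 1.34 (SE 0.38) and an adjusted p of 0.0473 by edgeR. Cxcl10, a chemokine induced by interferon and TNF, was lower, at 0.628, 2.83 and 3.83 against 10.1 and 8.56, with raw counts of at most 7 in drug-treated mice. Replicates 1 and 2 of the drug-treated mice, with raw counts of 1 and 5, were under the background of their lanes. The log2 fold change of Cxcl10 was -1.83 (SE 0.52), with an adjusted p of 0.0426 by edgeR, and its size cannot be read exactly. Both calls were fragile, and each held in 1 of 5 fits that left out 1 mouse. Over the other settings Tnfrsf13c lay between 0.81 and 1.45 and was called in 5 of 13, and Cxcl10 lay between -2.72 and -0.64 and was called in 5 of 12. For Tnfrsf13c the fits without either vehicle-treated mouse, or without replicate 2 or 3 of the drug-treated mice, did not pass; for Cxcl10 it was those without either vehicle-treated mouse or replicate 1 or 2. The change of Tnfrsf13c on day 1 exceeded that on day 7 by 2.80 (SE 0.56), with an adjusted p of 0.00192 by edgeR, and it was called in 9 of 12 other settings and 9 of 10 fits that left out 1 mouse (not without replicate 2 of the vehicle-treated mice on day 1). The B cell marker Ms4a1 was also called in this contrast, at 2.01 (adjusted p 0.0148), and the B cell sums given above for ruxolitinib lay above the vehicle on day 1 and below it on day 7. Their part in the level of Tnfrsf13c was not tested. Raw Tnfrsf13c counts of venetoclax-treated mice on day 1 were 2, 4 and 3. Replicates 1 and 2 of them were under the background of their lanes, so differences from this group have no exact size. The change under venetoclax minus that under ruxolitinib on day 1 was -3.30 (SE 0.73), with an adjusted p of 0.0102 by edgeR. It lay between -3.56 and -1.48 over 12 other settings, of which 9 called it, and 7 of 10 fits that left out 1 mouse called it. Those without replicate 2 of either vehicle group or of the venetoclax-treated mice did not, and left-out fits reached -2.41.

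Vehicle-treated mice were also set against untreated mice, to see whether gavage with a vehicle alone moved these genes. Of the 9 genes 0 were called, beside 0% of all genes; 75 of 655 genes had an unadjusted p under 0.05 by edgeR, 0 of them members, and DESeq2 called 0. The 9 estimates lay between -0.51 (Cd27) and 0.19 (Tnfsf14), where the median over all genes was -0.14 and moved between -0.30 and 0.09 with the setting. These untreated mice came from 3 runs, 1 from each, and replicates 1 and 3 had few counts, with 47977 and 37003 endogenous counts and 38.5% and 55.2% of probes above background, against 194748 counts and 66.3% in replicate 2. Of the vehicle-treated mice, replicate 2 of the venetoclax vehicle on day 7 was as low, at 43698 counts, and replicate 2 of the ruxolitinib vehicle on day 7 had 55011. Scaling raises near-background counts in such lanes. Of the 12 tested genes induced by TNF or lymphotoxin 0 were called. All 12 of these estimates lay below 0, as did 8 of 10 of the other ligands and 10 of 12 of the other receptors, with list medians of -0.68, -0.62 and -0.50. Each of these medians moved with 1 untreated mouse. Without untreated replicate 2 the targets were at -1.52 and the ligands at -0.92, and without replicate 3 the receptors were at -0.32. The adaptors had no settled direction, since 14 of 23 lay below 0 with a median of -0.03, but 5 of 23 with DESeq2 and 20 of 23 with all 20 housekeeping probes, and the median was 0.01 without untreated replicate 3. Without untreated replicates 1 and 3, a setting chosen after seeing the data that leaves 1 untreated mouse and takes its spread from the other groups, 8 of 12, 8 of 10, 9 of 12 and 10 of 23 lay below 0 for the targets, ligands, receptors and adaptors. The list medians were then -0.58, -0.35, -0.35 and 0.09, beside -0.01 over all genes.

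The clearest differences in these genes lay between days and not between treatments. Each day was read in its own run, so day and run cannot be told apart here. The SEs and p-values cover the spread between mice and not that between runs. After the values had been seen, day 7 was compared with the mean of days 1 and 3, separately in vehicle-treated and in drug-treated mice. Tnfrsf1b was lower on day 7 by 1.02 on the log2 scale in vehicle-treated mice (SE 0.19, adjusted p 0.000112 by edgeR) and by 1.00 in drug-treated mice (SE 0.16, adjusted p 1.47e-05). Tnfrsf14 was lower by 1.12 in vehicle-treated mice (SE 0.21, adjusted p 9.76e-05) and by 0.79 in drug-treated mice (SE 0.16, adjusted p 0.000313). With 2 of 9 genes called in each, the share lay under the background, since 36.6% of all genes were called in vehicle-treated and 32.8% in drug-treated mice.

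In the 4 vehicle-treated mice of each day, Tnfrsf1b was at 150.0, 116.3, 131.9 and 158.2 on day 1, at 166.0, 125.2, 151.8 and 95.7 on day 3, and at 68.0, 75.8, 63.8 and 63.5 on day 7. No mouse of day 7 reached any of the earlier days. Tnfrsf14 was at 281.6, 305.1, 378.2 and 403.3 on day 1, at 360.9, 311.9, 372.3 and 283.0 on day 3, and at 138.7, 188.2, 149.0 and 147.5 on day 7, again without overlap. In the 6 drug-treated mice of a day, the lowest, median and highest Tnfrsf1b were 121.1, 132.0 and 159.1 on day 1, 91.8, 124.4 and 176.0 on day 3, and 43.5, 62.6 and 92.3 on day 7, so that the highest of day 7 just reached the lowest of day 3. For the other receptor gene, the lowest, median and highest Tnfrsf14 were 222.1, 281.8 and 441.2 on day 1, 216.4, 289.6 and 380.6 on day 3, and 127.4, 162.2 and 209.5 on day 7, without overlap. Both genes were picked after their values were seen, and the share of all genes that separate in this way was not counted.

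The untreated mice differed in the same way between the runs. The one in the day 7 run had 84.3 for Tnfrsf1b, against 112.0 and 147.9 in the runs of days 1 and 3, and 168.5 for Tnfrsf14, against 476.8 and 312.2. With 1 untreated mouse per run this is a value and not a test.

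**Figure D4:**
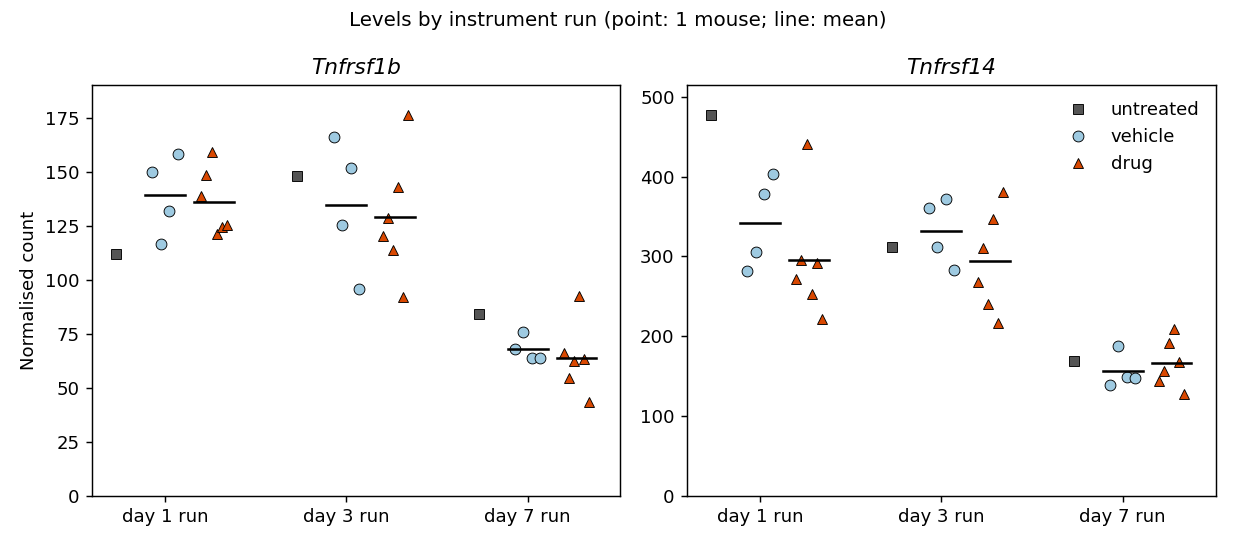
Normalised count (vertical axes, linear from 0) of Tnfrsf1b and Tnfrsf14 by the run in which the lanes were read (horizontal axis), for untreated, vehicle-treated and drug-treated mice, with 1 point per mouse and a line at the mean of 4 or 6 mice. Mice of the day 7 run lie lowest among untreated and vehicle-treated mice, and among drug-treated mice the highest Tnfrsf1b of day 7 (92.3) touches the lowest of day 3 (91.8).

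Other measures moved with the run. The median over all genes was 0.14 in the comparison of vehicle-treated mice, and it ranged from -0.04 to 0.38 over the settings. Relative to it the 2 receptors were lower by 1.16 and 1.26. The summed neutrophil markers of vehicle-treated mice ran from 65225 to 109097 on days 1 and 3 and from 49187 to 58746 on day 7, and in the untreated mice from 91142 and 106925 to 52884. Gene by gene, 5 of the 7 neutrophil markers were called higher on day 7 and 2 lower, in vehicle-treated and in drug-treated mice alike. In vehicle-treated mice the higher ones included the granule protein genes Elane (2.42) and Mpo (1.84), and the lower ones were S100a8 (-1.002) and Csf3r (-0.68). The monocyte markers ran from 519 to 686 on days 1 and 3 and from 727 to 890 on day 7. The runs had similar detection, with medians of 71.5%, 68.4% and 66.3% of endogenous probes above background on days 1, 3 and 7, while the median endogenous total was 176425, 147603 and 66683. The part of these in the lower counts of Tnfrsf1b and Tnfrsf14 was not tested.

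Of the other members, 0 were called on day 7 by edgeR in either kind of mice, and Ltbr came closest. Tnfrsf1a differed between day 7 and the earlier days by 0.03 in vehicle-treated and 0.05 in drug-treated mice, with a sign that changed with the scaling, and neither passed. Ltbr was lower by -0.47 in vehicle-treated mice (SE 0.20, adjusted p 0.0614 by edgeR), and 5 of 12 other settings gave it an adjusted p under 0.05. In drug-treated mice Ltbr was at -0.28 (SE 0.16), with an adjusted p of 0.19. Of the 57 genes of the pathway lists, 16 were called in vehicle-treated mice, 7 higher and 9 lower, and 13 in drug-treated mice, 6 higher and 7 lower. Both shares lie under the 36.6% and 32.8% of all genes called, so the pathway lists do not stand out here, and the genes that follow are given as values. Btla was among those lower on day 7 in both, by -0.96 and -1.02, and so were the kinase gene Ikbke, by -1.34 and -1.30, and Nfkb2, by -0.62 and -0.42. Nfkb1 was higher in both, by 0.68 and 0.57, and so was the adhesion molecule gene Vcam1, by 1.21 and 0.75.

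Of the 2 receptors that were low in the day 7 run, the promoter of Tnfrsf1b (chr4:145246821-145247120, minus strand) is shown in the same way, with its STAT match in capitals.
Tnfrsf1b: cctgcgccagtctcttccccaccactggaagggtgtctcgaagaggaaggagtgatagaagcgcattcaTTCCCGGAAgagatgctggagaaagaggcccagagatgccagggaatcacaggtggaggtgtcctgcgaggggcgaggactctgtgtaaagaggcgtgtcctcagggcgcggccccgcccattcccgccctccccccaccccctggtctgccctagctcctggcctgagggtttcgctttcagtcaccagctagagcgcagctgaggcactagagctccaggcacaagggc

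For the 8 members above background in at least 22 mice, the genes with the most similar pattern over the 33 mice were listed by Pearson correlation, after the mean of each run had been subtracted. Candidates were the 348 other genes whose normalised counts averaged 20 or more. Ltb was closest to Jak1 (r = 0.85), Cd74, the invariant chain of MHC class II (r = 0.79), and Icam2 (r = 0.77). Tnfrsf14 was closest to Anp32b (r = 0.80), Birc5 (r = 0.76) and Itch (r = 0.69), and Tnfrsf1a to Il18rap (r = 0.78), Lcp1 (r = 0.77) and Ebi3 (r = 0.75). Weaker likeness was found for Cd27, Ltbr, Tnfrsf1b and Tnf. The closest were H2-Q10 to Cd27 (r = 0.58), Tlr8 to Ltbr (r = 0.58), Il6ra to Tnfrsf1b (r = 0.56) and Hsd11b1 to Tnf (r = 0.53). These mice share runs and a common scaling, and the values are a description of these lanes.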

How the data were processed

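The deposited values were raw barcode counts per probe, exported by the authors from the nCounter instrument without normalisation; their own normalisation in nCounter Advanced Analysis 2.0.115 was not used here. The sources name the panel differently. The run header of the mice labelled day 3 reads day 2; the labels were followed, so the day of these mice is not settled. Of 20 housekeeping probes, 11 exceeded background throughout, and their geometric mean gave the scaling factor per lane. Genes that exceeded background in 2 or more lanes (655) entered 1 edgeR 4.0.16 model (R 4.3.3) of 13 group means, tested by quasi-likelihood with Benjamini-Hochberg adjustment over all genes and a threshold of 0.05. The biological coefficient of variation was 20.2%, with 20 residual degrees of freedom. Intervals are 95% intervals around the edgeR fold change, which edgeR computes after adding a small count to each lane. Their SE comes from the fit without that count, so an interval and its p-value can disagree. Replicates were separate mice. No lanes of a group were identical. Full statistics were given where the unadjusted p was under 0.05, and Ltb, Ltbr, list genes called and the comparison of days were added after values were seen. The members, gene lists and tests were chosen with earlier results of these data known. Alternatives were other scalings (TMM, total count, all 20 housekeeping probes), DESeq2 1.42.0, limma 3.58.1 with pseudocounts of 1 and 10 or after background subtraction, other filters, shallow lanes left out, a replicate block, pooled vehicles, only the groups compared, an exact permutation within days and each mouse left out. The test was tested on simulated data. Intervals cover the spread between mice and counting error only. The genes closest in pattern to Tnfsf14 are not reported here.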

Additional observations from a re-analysis of the deposited data

How the results depend on the processing

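The count of the 9 genes called was 0 in each comparison of a drug with its vehicle, and it stayed 0 in every fit that left out 1 mouse and in every other setting run, with 3 exceptions. With only the groups compared in the fit it was 1 for ruxolitinib on day 1 (Tnfrsf14, -0.62). With both vehicles pooled it was 1 where the drugs' changes were compared on day 1 (Ltb, -1.36) and 1 for the same over the days (Ltb, -0.66). A shared control cancels from the last 2 values, which set the drugs' mice directly against each other, and the cause was not tested for the first. Estimates near 0, such as those of Tnfrsf1a, changed sign with the scaling. For day 7 against days 1 and 3 the count was 2 in both kinds of mice and 2 to 3 over the other settings, and leaving out 1 mouse gave 2 in vehicle-treated and 2 to 3 in drug-treated mice. Over all settings and mice left out, Tnfrsf1b lay between -1.21 and -0.76 in vehicle-treated mice, and Tnfrsf14 between -1.33 and -0.86. Counts over all genes moved by more than 1.5 times with the setting: for ruxolitinib on day 1 from 18 to between 4 (limma, background subtracted) and 77 (only the groups compared), for venetoclax over the days from 19 to between 0 (exact permutation within days) and 28 (pooled vehicles), for venetoclax on day 1 from 1 to between 0 and 26, on day 3 from 0 to 2, on day 7 from 1 to between 0 and 1 and on day 1 minus day 7 from 0 to 1, for ruxolitinib on day 3 from 1 to between 0 and 9, on day 7 from 1 to between 0 and 2 and over the days from 8 to between 0 and 20, for its day 1 minus day 7 from 10 to between 1 and 22, for the drugs' changes compared on day 1 from 11 to between 0 and 70, on day 3 from 1 to between 1 and 6, on day 7 from 2 to between 0 and 4 and over the days from 4 to between 1 and 36, for vehicle-treated against untreated mice from 0 to 5, and for day 7 in vehicle-treated mice from 240 to between 136 and 249. The exact permutation within days, which has few arrangements with 3 against 2 mice per day, called 0 of 655 genes for either drug. Without it the lowest count for venetoclax over the days was 7 (limma, background subtracted). The labels do not say whether replicate numbers pair the mice. The correlation of same-numbered drug-treated and vehicle-treated mice ran from -0.391 to 0.522, which does not settle it. With the replicate block 0 of the 9 genes were called against a vehicle, and the count over all genes was 15 in place of 18 for ruxolitinib on day 1 and 11 in place of 19 for venetoclax over the days. Low raw counts limit Lta, Tnf and Cd27, and no fold change of Lta could be read at this depth.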
